A study of Fukomys damarensis and Heterocephalus glaber and Cavia porcellus with 28 samples.

Results

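The hearts of the Damaraland mole-rat (Fukomys damarensis, a subterranean African rodent that lives in cooperative groups) were compared with those of the guinea pig (Cavia porcellus, a related surface-living rodent). All genes of the deposited heart table entered, provided that their mean value over the 8 libraries of both species was at least 1 above the table's minimum, and the 12 mitochondrially encoded genes (mt- genes) were set apart. Of 13928 rows, 10509 genes met this rule and were tested. The series holds 28 libraries of heart and liver from these rodents, the naked mole-rat and the mouse, made from total RNA after ribosomal RNA depletion. The naked mole-rat hearts (replicates 1 to 3), given below as means, were of 13, 15 and 17 months, and the mouse hearts (replicates 1 to 3) of 2 months. Livers were of 36 or 48 months in Damaraland mole-rats (replicates 1 to 5) and of 2.3 months in guinea pigs (replicates 1 to 3). The Damaraland group held 5 hearts, 3 from males of 48 months (replicates 1, 3 and 4) and 2 from males of 36 months (replicates 2 and 5). For 1 of the animals of 48 months, the liver label gives 36 months. The guinea pig group held 3 hearts from males of 2.3 months. No treatment or genetic change is given for either group. Species and age therefore cannot be told apart in any result below. The labels give no part of the heart, and no replicate shares an animal with the other group. P-values measure the spread between these animals.

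The mammalian heart beats with a sarcomere built of myosin thick filaments and actin, tropomyosin and troponin thin filaments, switched by calcium that enters through L-type channels and is released from the sarcoplasmic reticulum. It draws most of its energy from fatty acid oxidation in mitochondria and can shift towards glucose and lactate. Cardiomyocytes supply most of its RNA, beside fibroblasts that lay down collagen, endothelium, mural cells and leukocytes. In such bulk tissue, fewer cells of a type and less RNA per cell cannot be told apart.

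Reads recovered from the deposited values totalled 8551766 to 22024715 per Damaraland library and 16129660 to 20551768 per guinea pig library. Values are on the log2-like scale of a variance-stabilising transform, on which 0 reads has the value 5.36. A doubling moved a value by 0.28 from 10 scaled reads (reads over the size factor of their library) and by 0.95 from 1000 scaled reads, so differences of rare genes are compressed. Reads were not corrected for gene length. All 15 cardiomyocyte markers were detected in both species, and their sum was 179467 to 224252 CPM (the usual share of a library's reads, taken here outside the mt- genes) in Damaraland and 132906 to 170651 in guinea pig heart. Without Myh6, the most abundant of these markers, the sums were 119793 to 158092 against 99872 to 139883, and the groups overlapped. Damaraland replicate 5 stood apart in several measures: it had the lowest depth and a fibroblast marker sum of 8471 CPM against 2256 to 3155 in the other Damaraland libraries. Guinea pig replicate 2 had the highest atrial marker sum of its group, 1823 against 324 and 414 CPM.

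In all, 3198 of the 10509 genes differed (30.4%), at a limma Benjamini-Hochberg adjusted p under 0.05 and a difference of at least 1 on the log2-like scale. Of these, 1600 were higher (15.2%) and 1598 lower (15.2%) in Damaraland heart. Calls below follow this rule, differences are Damaraland minus guinea pig with their limma standard error, and a gene is called higher or lower only where it passed. The median difference of all tested genes was 0.03. In 3142 of the 3198 genes, the libraries of the groups did not overlap, as in 6025 of all tested genes (57.3%). A difference of at least 2 was reached by 856 called genes, of at least 3 by 230 and of at least 4 by 66. The abundant genes leaned one way: among the 299 nuclear genes within the 300 highest mean values, 59 were higher and 15 lower in Damaraland heart.

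**Figure D1:**
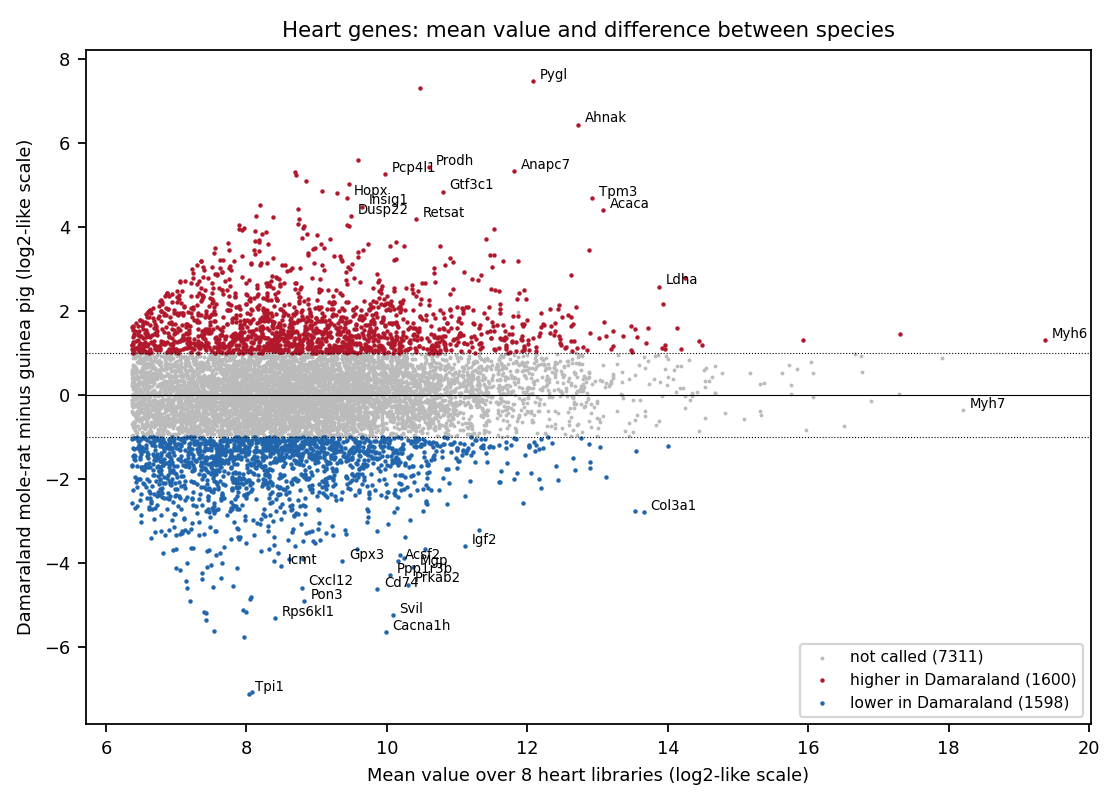
Each point is 1 of the 10509 tested heart genes, placed by its mean value over the 8 libraries (x axis, log2-like scale) and its difference, Damaraland mole-rat minus guinea pig (y axis, same scale); red and blue points passed the test and the dotted lines mark a difference of 1. Called genes were as many above as below the line of no difference, 1600 and 1598, and Pygl, Ahnak and Tpi1 lie far from it.

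The 12 largest positive differences, among called genes without overlap between groups and with both means at least 1 above the minimum, covered glycogen, lipid and proline metabolism, the cytoskeleton and gene regulation. Pygl, the liver-type glycogen phosphorylase, had values of 16.22, 14.87, 14.73, 13.39 and 15.25 in Damaraland replicates 1 to 5 and of 7.27, 7.83 and 7.12 in guinea pig replicates 1 to 3, a difference of 7.48 ± 0.46 (limma adjusted p = 5.35e-08). Its Damaraland hearts varied over nearly 3 units, yet the lowest stood far above the highest guinea pig heart. Ahnak, a giant scaffold protein beneath the plasma membrane, was at 14.71, 15.07, 15.00, 15.53 and 15.36 against 8.48, 8.83 and 8.77 (difference 6.44 ± 0.21, limma adjusted p = 3.40e-10). For Ahnak the guinea pig was the species apart, since the naked mole-rat and mouse hearts averaged 15.66 and 15.14, and its liver difference was the same size, 6.49. How reads of each species were assigned to genes is not given in the sources used here. For this and every other gene, a difference in RNA and in counting therefore cannot be told apart. Acaca, the acetyl-CoA carboxylase that makes malonyl-CoA, was at 15.13, 14.86, 14.89, 14.79 and 13.95 against 10.33, 10.35 and 10.30 (difference 4.40 ± 0.24, limma adjusted p = 1.96e-08). Here the Damaraland mole-rat stood apart, with means of 10.45 in naked mole-rat and 9.22 in mouse heart. Tpm3, a tropomyosin of slow muscle and the cytoskeleton, was at 13.87, 15.27, 14.77, 14.82 and 14.71 against 9.54, 10.02 and 10.40 (difference 4.70 ± 0.29, limma adjusted p = 5.08e-08). In liver the Tpm3 difference was -0.76 and did not pass. Hopx, a homeodomain protein that restrains serum response factor in cardiomyocytes, was at 11.30, 11.23, 11.29, 10.49 and 11.70 against 6.81, 6.45 and 6.24 (difference 4.70 ± 0.24, limma adjusted p = 1.20e-08). The mouse mean of Hopx, 11.91, lay near the Damaraland values and the naked mole-rat mean, 7.29, near those of the guinea pig.

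The other 7 were Prodh, which starts proline breakdown in mitochondria (difference 5.42), Anapc7, a subunit of the anaphase-promoting complex (5.33), Pcp4l1 (5.26), Gtf3c1, the largest subunit of the RNA polymerase III factor TFIIIC (4.84), Insig1, which holds the sterol sensor complex in the endoplasmic reticulum (4.49), the phosphatase gene Dusp22 (4.26) and Retsat, retinol saturase (4.19). Prodh ran from 12.32 to 12.96 in Damaraland and from 7.02 to 7.52 in guinea pig heart, while the naked mole-rat and mouse means were 8.56 and 8.47. Anapc7 was at 13.93 to 14.36 in Damaraland replicates 1 to 4 and at 12.62 in replicate 5, against 8.41 to 8.57. Of the 12 genes, 10 were also higher in Damaraland liver, where Hopx and Tpm3 were the exceptions. The naked mole-rat heart mean was nearer to the Damaraland mean in 6 of the 12 and the mouse mean in 5.

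The 12 largest negative differences included a calcium channel, regulators of glycogen and energy balance, and secreted proteins. Cacna1h, the pore of the T-type channel Cav3.2, was at 7.52, 7.85, 7.87, 8.32 and 7.78 in Damaraland and at 13.74, 13.42 and 13.41 in guinea pig heart (difference -5.66 ± 0.19, limma adjusted p = 4.64e-10). The guinea pig was the species apart, with means of 9.09 in naked mole-rat and 8.10 in mouse, and in liver the difference was 0.39 and did not pass. Svil, supervillin, which ties actin and myosin to membranes, was at 8.42, 8.32, 8.16, 7.84 and 7.82 against 13.47, 13.25 and 13.37 (difference -5.25 ± 0.18, limma adjusted p = 4.64e-10). For Svil it was the Damaraland mole-rat that differed from the naked mole-rat (12.93) and mouse (13.16) means, and liver showed a difference of -4.48. Prkab2, the muscle-enriched beta subunit of AMP-activated protein kinase, was at 8.60, 8.72, 8.36, 8.81 and 8.54 against 12.85, 13.17 and 13.34 (difference -4.52 ± 0.17, limma adjusted p = 9.82e-10). Ppp1r3b, which brings protein phosphatase 1 to glycogen, was at 8.72, 8.87, 8.16, 8.40 and 8.06 against 12.98, 12.66 and 12.54 (difference -4.29 ± 0.21, limma adjusted p = 7.68e-09). Neither Prkab2 nor Ppp1r3b passed in liver, where the differences were -0.70 and -0.24. Cxcl12, a chemokine that retains CXCR4-bearing cells, was at 7.30, 7.17, 6.53, 7.12 and 7.24 against 11.49, 11.92 and 11.57 (difference -4.59 ± 0.20, limma adjusted p = 2.84e-09). Naked mole-rat and mouse means of Cxcl12, 11.50 and 11.39, lay with the guinea pig.

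The remaining 7 were Rps6kl1 (difference -5.32), the lactonase gene Pon3 (-4.90), Cd74, the invariant chain of MHC class II (-4.62), Mgp, an inhibitor of calcification made by vascular and mesenchymal cells (-4.10), Icmt, which methylates prenylated proteins (-4.09), Gpx3, the secreted glutathione peroxidase (-3.97), and Acsf2, an acyl-CoA synthetase (-3.96). Mgp was at 8.47 to 9.45 in Damaraland and 12.59 to 13.32 in guinea pig heart, and Gpx3 at 6.99 to 8.68 and 11.64 to 12.21. Of the 12 genes, 6 were also lower in Damaraland liver. Acsf2 was higher there, by 3.07. The naked mole-rat mean was nearer to the Damaraland mean in 8 of the 12 and the mouse mean in 7.

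**Figure D2:**
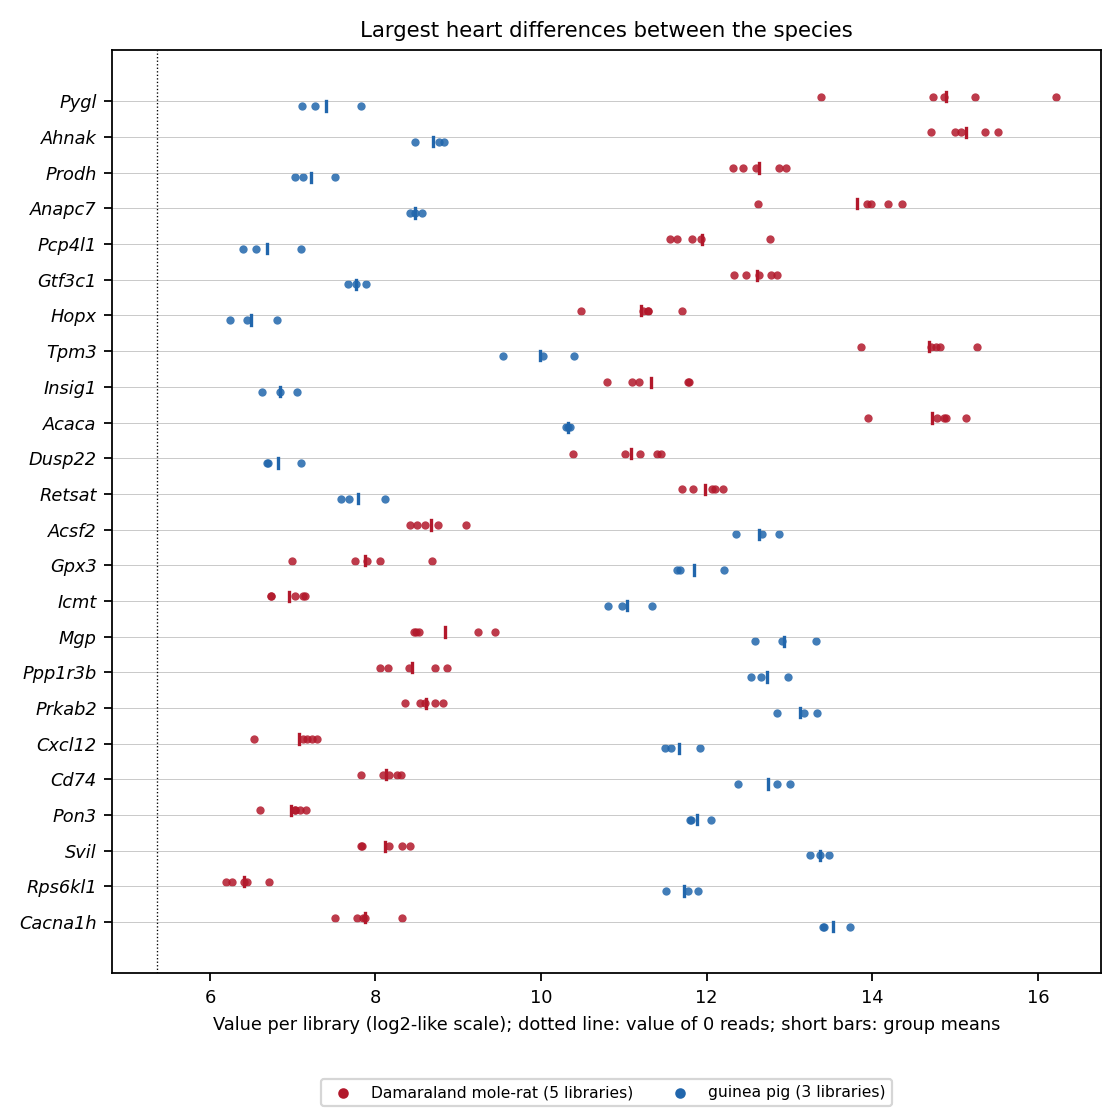
Value in each library (x axis, log2-like scale) of the 12 genes with the largest positive and the 12 with the largest negative difference; red points are the 5 Damaraland hearts, blue points the 3 guinea pig hearts, short bars the group means and the dotted line the value of 0 reads. The genes were picked among those without overlap between groups, so no Damaraland point reaches a guinea pig point in any row. Pygl and Anapc7 spread most within Damaraland.

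Among the 300 highest mean values, the called genes with the largest positive differences were Ahnak, Tpm3, Acaca, Stard10 (difference 3.45), Uqcr11 (2.85), Pde4dip (2.78), Ldha (2.58) and Clu (2.15). Pde4dip, myomegalin, was at 15.09 to 15.43 in Damaraland and 12.46 to 12.59 in guinea pig heart, with the naked mole-rat and mouse means, 15.53 and 15.40, beside the Damaraland hearts. Clu, the secreted chaperone clusterin, was at 14.21 to 15.28 against 12.38 to 12.91. The largest negative differences were those of Col3a1 (-2.79), Lpl (-2.78), Hspb6 (-2.03), Hspb7 (-1.95), Col4a1 (-1.79), Usp13 (-1.73), Fbxo40 (-1.69) and Pam (-1.60). Hspb6 and Hspb7 encode small heat shock proteins abundant in muscle. Hspb7 was at 13.24, 12.79, 12.17, 12.08 and 11.70 in Damaraland and at 14.42, 13.98 and 14.64 in guinea pig heart (limma adjusted p = 0.000149). Of all 35 heat shock and chaperonin genes tested, with Hspb6 and Hspb7 included, 2 were higher and 4 lower (5.71% and 11.4%). Over all tested genes the share was 15.2% each way.

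A few genes had reads in one species alone. The glycolytic enzyme gene Tpi1, triosephosphate isomerase, had 0 reads in every Damaraland heart and 6008 to 9566 reads in each guinea pig heart, with values of 12.62, 12.20 and 12.63 in guinea pig replicates 1 to 3. Against a floor of 3 reads over the 5 Damaraland libraries, its share of reads was at least 10970-fold lower. Stk24, a kinase gene, Pfdn1, a prefoldin subunit gene, and Ccng2, cyclin G2, likewise had 0 reads in the Damaraland hearts against 1402 to 1922, 438 to 574 and 327 to 404 reads. All 4 also had 0 reads in Damaraland liver, and all 4 have a protein-coding entry of that name in the RefSeq annotation of the Damaraland genome. In the other direction, 30 called genes had 0 reads in the 3 guinea pig hearts. The highest of these in Damaraland heart were Cr1l, a complement regulator (1059 to 2402 reads), Cavin4, a caveolar coat protein of muscle (592 to 1243), Snrpd2, a core spliceosome protein (440 to 879), Cst9 (309 to 567) and Rec114 (90 to 683). How reads of each species were assigned to the mouse gene identifiers of the table is not given in the sources used here, so no RNA of these genes and no counted read cannot be told apart. Floors and read counts cover counting error only.

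The counts of list members below stand beside the 15.2% of all tested genes called in each direction. Of 14 tested thin filament and troponin genes, 5 were higher and 1 lower (median difference 0.86), and of 12 thick filament genes 3 were higher and 1 lower (median 0.67). The thick filament count of higher genes was 5 without guinea pig replicate 2 and 2 without guinea pig replicate 1 or Damaraland replicate 3. Myh6, the fast alpha myosin heavy chain, was at 19.55, 19.85, 19.98, 19.89 and 20.04 in Damaraland and at 18.47, 18.67 and 18.52 in guinea pig heart (difference 1.31 ± 0.22, limma adjusted p = 0.000225). Its groups did not overlap, while Myh7, the slow beta chain, overlapped widely: 17.12, 18.87, 17.62, 18.73 and 18.00 against 17.52, 18.63 and 19.15 (difference -0.37 ± 0.44, limma adjusted p = 0.482). Cardiac troponin C, Tnnc1, which binds the activating calcium, was at 16.09, 16.81, 16.61, 15.94 and 16.62 against 14.74, 15.30 and 15.24 (difference 1.32 ± 0.25, limma adjusted p = 0.000536). Tnnt1 and Tnni1, the slow skeletal troponins T and I, were higher by 2.09 ± 0.32 and 2.06 ± 0.57, and Tnni1 was highest in Damaraland replicate 5, at 13.66 against 10.72 to 11.65 in replicates 1 to 4. The adult cardiac partners did not pass: Tnni3 had a difference of 0.18 (limma adjusted p = 0.426) and Tnnt2 of 0.93 (limma adjusted p = 0.0506). The leiomodins, which elongate thin filaments, went opposite ways, with Lmod2 higher by 1.10 and Lmod3 lower by 3.70, a difference of -3.70 ± 0.19. Lmod3 was at 5.90 to 6.39 in Damaraland, close to the value of 0 reads, and at 9.51 to 10.20 in guinea pig heart. Mybpc1, slow myosin binding protein C, was at 7.88 to 9.26 against 5.36 to 5.56 (difference 2.78). The call of Mylk3, the cardiac myosin light chain kinase (1.07), was lost without guinea pig replicate 1 (0.88) and without Damaraland replicate 3 (0.97). Mybphl, the only thick filament gene lower in Damaraland, had a difference of -1.55 that became -0.97 without guinea pig replicate 2 (limma adjusted p = 0.0567).

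Around the Z-disc and M-band, 6 of 26 genes were higher and 1 was lower (median 0.64). The higher ones were the LIM domain genes Pdlim3 (1.59), Csrp1 (1.44), Csrp3 (1.23) and Pdlim7 (1.13), with Myoz1 (1.12) and the stretch-responsive Ankrd1 (1.11), while the M-band gene Myom3 was lower (-2.0). Csrp3 fell to 0.98 without guinea pig replicate 1, just under the size threshold. Myoglobin, Mb, the oxygen store of muscle, was at 17.75, 18.33, 18.03, 17.69 and 17.44 against 16.36, 16.22 and 16.63 (difference 1.45 ± 0.24, limma adjusted p = 0.000199).

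Of 26 calcium handling genes, 2 were higher and 4 lower (7.69% and 15.4%, median -0.36), beside 15.2% each way over all tested genes. Cacna1c, the pore of the L-type channel, was at 11.96, 11.92, 12.07, 12.60 and 11.90 in Damaraland and at 10.70, 10.32 and 10.68 in guinea pig heart (difference 1.52 ± 0.20, limma adjusted p = 2.62e-05). Asph, whose locus encodes the reticulum protein junctin, was higher by 2.02. Among the lower genes were Sri, sorcin, a calcium sensor that restrains the ryanodine receptor (-2.40), Trdn, triadin, which holds calsequestrin to the release channel (-1.38), and Atp2a3 (-1.27). The main pump and release channel did not pass the size threshold, with a difference of -0.14 ± 0.21 for Atp2a2 and of -0.84 ± 0.23 for Ryr2. The pump inhibitor phospholamban, Pln, had a difference of 0.72 ± 0.25 and did not pass.

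Of 21 action potential channel genes, 2 were higher and 4 lower (9.52% and 19.0%). Kcnj5, a subunit of the potassium channel opened by vagal acetylcholine, was at 12.35, 13.16, 12.44, 12.87 and 13.07 in Damaraland and at 9.02, 10.28 and 9.04 in guinea pig heart (difference 3.33 ± 0.30, limma adjusted p = 1.07e-06). The T-type channel genes were both lower, Cacna1h as described and Cacna1g by 1.73 (difference -1.73 ± 0.27), as were Abcc9, the sulfonylurea receptor of the ATP-sensitive potassium channel (-1.65), and Fxyd1, phospholemman (-1.45). The acetylcholine receptor upstream of Kcnj5, Chrm2, was higher by 1.26 ± 0.17.

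At the cell junctions, 1 of 18 genes was higher and 4 were lower (5.56% and 22.2%). Gja5, connexin 40 of atria and the conduction system, was at 10.76, 10.71, 10.68, 11.76 and 11.48 in Damaraland and at 7.38, 7.46 and 7.59 in guinea pig heart (difference 3.60 ± 0.25, limma adjusted p = 1.42e-07). The desmosomal genes Dsg2 (-2.34), Dsc2 (-1.88) and Jup (-1.52) and the connexin gene Gjc1 (-1.35) were lower. Dsg2 was at 8.86 to 9.38 in Damaraland and at 11.31 to 11.80 in guinea pig heart. Gja5 and Stard10 belong to the atrial marker list, of which 2 of 9 were higher (4 without guinea pig replicate 2) and 1 was lower. The atrial sum was 1374, 2572, 2232, 2682 and 3361 CPM in Damaraland replicates 1 to 5. It was 414, 1823 and 324 in guinea pig replicates 1 to 3. Stard10 alone gave 993 to 1839 CPM of the Damaraland sums and 130 to 151 of those of the guinea pig. Without it the sums were 381, 986, 394, 1350 and 2138 against 263, 1688 and 193, and the groups overlapped. In guinea pig replicate 2, Gja5 was at 7.46 and Stard10 at 10.70. The part of the chamber sampled in these differences was not tested.

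Among adrenergic and muscarinic genes, 3 of 22 were higher and 5 lower (13.6% and 22.7%). Adra1d, an alpha-1 adrenergic receptor, was at 6.08 to 6.63 in Damaraland and at 10.31 to 10.63 in guinea pig heart (difference -4.12 ± 0.16, limma adjusted p = 1.31e-09). Pde5a, which breaks down cyclic GMP, was lower (-2.14), and Adcy6, a cardiac adenylyl cyclase (1.72), and Rgs2, which shortens Gq signals (1.62), were higher. The beta-1 receptor Adrb1 had a difference of -0.98 ± 0.23, just inside the size threshold. Of 9 natriuretic genes, 2 were higher and 2 lower. Npr3, the clearance receptor, was higher (2.15 ± 0.42), as was Corin, the protease that matures the atrial peptide (1.44 ± 0.23). Gucy1a1, a subunit of the nitric oxide receptor, was lower (-2.13 ± 0.19), and so was Npr2 (-1.18 ± 0.21), whose call was lost without guinea pig replicate 1 (-0.93). The peptide gene Nppa was at 10.75, 13.18, 11.39, 13.53 and 14.20 in Damaraland and at 8.65, 13.34 and 9.88 in guinea pig heart. Its groups overlapped through guinea pig replicate 2, and the difference of 1.98 ± 0.95 did not pass (limma adjusted p = 0.0879). It passed without that library (3.35, limma adjusted p = 0.00454) and without Damaraland replicate 1 (2.45, limma adjusted p = 0.0357).

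**Figure D3:**
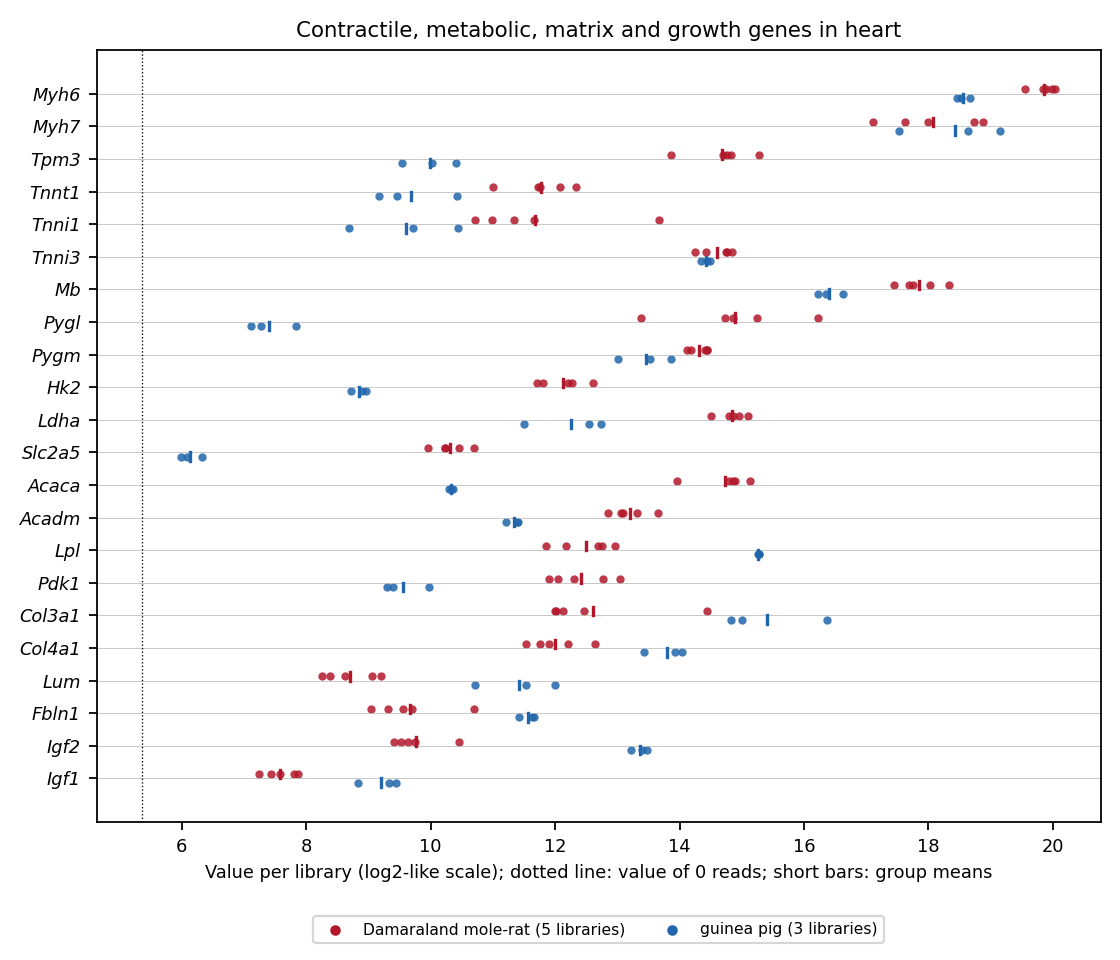
Value in each library (x axis, log2-like scale) of contractile, metabolic, matrix and growth genes; red points are Damaraland hearts, blue points guinea pig hearts, short bars the group means and the dotted line the value of 0 reads. Myh7 and Tnni3 overlap between groups while Myh6 does not, and the Damaraland point of Col3a1 nearest to the guinea pig values, 14.44, is replicate 5.

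The cardiac transcription factors and RNA-binding regulators split both ways, with 9 of 25 higher and 7 lower. Beside Hopx, the higher ones were Rbm20, the splicing regulator of titin (2.52), Esrrb (2.40), Mef2a (2.10), Srf, serum response factor (1.86), Tead1 (1.40), Irx4, a ventricular factor (1.27), Hand2 (1.26) and Tbx20 (1.08). Lower were the mitochondrial regulator Esrrg (-1.99), Tbx3 (-1.59), Rbm24 (-1.46), Gata4 (-1.35), Mef2c (-1.09), Irx5 (-1.03) and Mef2d (-1.02). Related factors thus stood on opposite sides: Esrrb was at 9.09 to 9.69 in Damaraland and 6.78 to 7.01 in guinea pig heart, while Esrrg was at 8.0 to 8.79 and 10.09 to 10.69. Mef2a was higher while Mef2c and Mef2d were lower. The count of lower genes was 4 without guinea pig replicate 3.

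Of glycogen genes, 5 of 22 were higher and 2 lower (22.7% and 9.09%), with a median difference of -0.03. Beside Pygl, the phosphoglucomutases Pgm2 (1.65) and Pgm1 (1.63), the kinase subunit Phkg2 (1.62) and the lysosomal glucosidase Gaa (1.06) were higher. Phkg1, the muscle catalytic subunit of phosphorylase kinase, was lower (-2.09), beside Ppp1r3b. The muscle phosphorylase Pygm had a difference of 0.86 ± 0.21, which did not reach the size threshold, except without guinea pig replicate 3 (1.05). The muscle synthase Gys1 had a difference of -0.82 ± 0.19.

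Of 22 glycolysis and glucose entry genes, 6 were higher and 4 lower (27.3% and 18.2%, median 0.15). Hk2, the hexokinase bound to mitochondria in muscle, was at 12.20, 11.72, 12.61, 11.80 and 12.27 in Damaraland and at 8.95, 8.72 and 8.90 in guinea pig heart (difference 3.26 ± 0.21, limma adjusted p = 7.07e-08). The mouse mean of Hk2, 12.99, was also high and the naked mole-rat mean low, at 7.4. Ldha, the lactate dehydrogenase subunit of glycolytic tissue, was at 14.79, 14.95, 15.10, 14.50 and 14.85 against 12.55, 12.73 and 11.50 (difference 2.58 ± 0.27, limma adjusted p = 3.93e-06). Slc16a1, the lactate transporter MCT1, was higher (2.03) and Slc16a3, the transporter MCT4, lower (-1.48). The glucose transporter genes differed: Slc2a1 was higher (1.34), whereas insulin-responsive Slc2a4 had a difference of -0.71 ± 0.20 and did not pass. Phosphoglycerate mutase genes stood on opposite sides, with Pgam1 at 13.89 to 14.59 against 12.50 to 12.95 (difference 1.59) and the muscle form Pgam2 at 8.37 to 10.02 against 11.33 to 11.62 (difference -2.32). Gpi1 was higher (1.57) and Aldoc lower (-2.11), beside Tpi1 described above. Pgam1 belongs to a family with processed copies, so its reads are uncertain.

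At the gate from glycolysis into mitochondria, 4 of 13 genes were higher and 1 lower. Pdk1, which shuts pyruvate dehydrogenase and responds to hypoxia, was at 13.04, 12.30, 12.76, 12.04 and 11.90 in Damaraland and at 9.97, 9.31 and 9.40 in guinea pig heart (difference 2.85 ± 0.27, limma adjusted p = 1.64e-06). Both pyruvate carrier subunits, Mpc1 (1.59) and Mpc2 (1.40), and pyruvate carboxylase, Pcx (1.66), were higher, and the kinase gene Pdk2 was lower (-1.24). In the fructose and polyol list, 5 of 8 genes were higher and none was lower (median 1.44). Among them were the fructose transporter Slc2a5 (4.19), the muscle bisphosphatase Fbp2 (2.41), ketohexokinase Khk (1.57) and sorbitol dehydrogenase Sord (1.53). Slc2a5 was at 9.96 to 10.70 in Damaraland and at 5.98 to 6.32 in guinea pig heart. With both group means at least 1 above the minimum, 3 of 6 genes of this list were higher. The guinea pig means of Slc2a5 and Fbp2, 6.13 and 6.17, fell short of that. Of 20 citric acid cycle genes, 2 were higher and 1 lower.

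Fatty acid uptake and oxidation held 12 higher and 3 lower genes of 33 (36.4% and 9.09%, median 0.36). The mitochondrial beta-oxidation enzymes were prominent among the higher genes: Acadm (1.86), Echs1 (1.61), Hadha (1.52), Eci1 (1.47), Acadvl (1.40), Hadhb (1.39), Etfdh (1.18) and Etfa (1.09), with the carnitine transferase Cpt1a (1.45), the fatty acid carrier Fabp3 (1.19) and Acsl3 (1.12). Acadm, medium-chain acyl-CoA dehydrogenase, was at 12.85 to 13.66 in Damaraland and at 11.21 to 11.41 in guinea pig heart (limma adjusted p = 4.57e-06). Acaca, also in this list, makes malonyl-CoA rather than oxidising fat. Acsl4 (-1.55), Slc27a1 (-1.28) and Acot13 (-1.03) were lower. Of 12 lipid storage and lipolysis genes, 2 were higher and 4 lower (median -0.16). Lpl, lipoprotein lipase, which releases fatty acids from circulating lipoproteins, was at 12.69, 12.76, 12.97, 11.86 and 12.18 against 15.27, 15.27 and 15.25 (difference -2.78 ± 0.24, limma adjusted p = 9.73e-07), and its endothelial anchor Gpihbp1 was at 6.66 to 7.30 against 8.73 to 9.29 (difference -2.13 ± 0.19). The droplet coat gene Plin2 was lower (-2.06), and of the triglyceride synthases Dgat2 was higher (1.76) and Dgat1 lower (-1.56). Among 23 creatine and adenylate genes, 2 were higher and 3 lower, including the brain-type creatine kinase Ckb (-2.71), while the muscle form Ckm had a difference of 0.98 ± 0.21, under the size threshold. Adipocyte markers summed to 1764 to 3526 CPM in Damaraland and to 432 to 626 in guinea pig heart, where Retn and Ucp1 were at 0 in the guinea pig hearts, and 4 of 8 tested markers were higher. Acaca, which is on that list, gave 1181 to 2783 CPM of the Damaraland sums and 96.7 to 110 of those of the guinea pig, and without it the sums were 525 to 744 against 322 to 521. The part of fat cells in these differences was not tested.

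Nuclear genes of the respiratory chain were read against the 15.2% of all genes called in each direction. Of 34 complex I genes, 7 were higher and 3 lower (20.6% and 8.82%, median 0.41), and of 43 genes of complexes II to V, 8 were higher and 5 lower (18.6% and 11.6%, median 0.25). Uqcr11, a small complex III subunit, was at 13.59, 14.05, 14.32, 13.26 and 13.27 in Damaraland and at 10.67, 10.89 and 10.98 in guinea pig heart (difference 2.85 ± 0.25, limma adjusted p = 9.53e-07). Ndufa5 (2.44), Ndufb8 (2.10), Atp5mpl (2.98) and Sdhd (2.10) were also higher, and Cox8a (-3.07) and Ndufc1 (-2.26) lower. The count of 5 lower genes was 3 without guinea pig replicate 1, guinea pig replicate 3, Damaraland replicate 4 or Damaraland replicate 5. Proteins of the mitochondrial ribosome, which translates the mt- genes, had 22 of 75 genes higher and 4 lower (29.3% and 5.33%, median 0.59). Mrpl27 (2.48), Mrpl37 (2.22), Mrpl40 (1.91) and Mrpl39 (1.80) led the higher genes, and Mrps6 (-1.57), Mrpl18 (-1.55), Mrpl52 (-1.51) and Mrps22 (-1.10) were the lower ones. Cytosolic ribosomal protein genes, a family with many processed copies whose reads are uncertain, had 12 of 74 higher and 6 lower (16.2% and 8.11%, median 0.15).

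The 12 mt- genes themselves were set apart because nearly no reads of them were counted for the Damaraland mole-rat. They took 0.00565% to 0.0279% of reads in Damaraland hearts and 18.0%, 5.42% and 7.40% in guinea pig replicates 1 to 3. For mt-Co1 this was 238 to 1234 reads per library against 263564 to 932460. Damaraland liver showed the same gap, with 121 to 574 reads of mt-Co1 against 162357 to 217724. Whether these genes of the Damaraland mole-rat were in the reference used for counting is not given in the sources used here, so a difference in RNA and in counting cannot be told apart.

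Of the 38 pathway lists, the extracellular matrix had the highest share of lower genes: 18 of 41 collagen and matrix genes were lower and 1 was higher (43.9% and 2.44%, median -0.72). Col3a1, a fibrillar collagen, was at 12.13, 11.99, 12.46, 12.02 and 14.44 in Damaraland and at 15.01, 16.38 and 14.82 in guinea pig heart (difference -2.79 ± 0.52, limma adjusted p = 0.000516). Damaraland replicate 5 came within 0.4 of the lowest guinea pig heart and replicates 1 to 4 stayed more than 2 below. Col4a1 of basement membranes was at 11.90, 11.53, 11.76, 12.20 and 12.64 against 13.43, 14.04 and 13.93 (difference -1.79 ± 0.25, limma adjusted p = 5.13e-05). The proteoglycan gene Lum (-2.71) and Fbln1, fibulin 1 (-1.91), were lower, as were Timp1 (-1.91) and Timp2 (-1.25), which inhibit matrix proteases, and the protease gene Mmp2 (-1.43). Further lower genes were the collagens Col6a3 (-1.62), Col6a1 (-1.59), Col1a2 (-1.49), Col14a1 (-1.25), Col5a1 (-1.16) and Col6a2 (-1.13), the crosslinking enzymes Loxl1 (-1.87) and Loxl2 (-1.25), fibronectin Fn1 (-1.18), fibrillin Fbn1 (-1.14) and laminin Lama4 (-1.11). The exception was Plod2, which hydroxylates collagen lysines (1.79). Without Damaraland replicate 5, 19 genes were lower.

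Fibroblast markers moved with the matrix genes. Of 13, 6 were lower and none higher (median -0.80), and 4 of these 6, Col1a2, Col3a1, Fbln1 and Lum, are matrix genes as well. Their sum was 3155, 2859, 3135, 2256 and 8471 CPM in Damaraland replicates 1 to 5 and 8573, 14371 and 6973 in guinea pig replicates 1 to 3. The Damaraland sums overlapped those of the guinea pig through replicate 5 alone, and the difference did not pass an exact two-sided permutation test (p = 0.0714, adjusted over 16 library measures 0.127), whose smallest possible p is 0.0357. Endothelial markers summed to 1826 to 2561 against 3264 to 3867, with 3 of 16 genes higher and 4 lower. Cav1 alone gave 133 to 151 CPM against 864 to 1146. Without Cav1 the endothelial sums were 1683 to 2415 against 2296 to 2722, and the groups overlapped. Mural cell markers had 4 of 13 higher, led by smooth muscle actin Acta2 (3.19), and 2 lower. The leukocyte sum was 192 to 372 against 744 to 1062, but without Cd74 it was 175 to 357 against 247 to 319, and of 12 tested leukocyte markers 1 was higher and 1 lower. None of the 16 measures passed after adjustment (lowest adjusted p 0.0816, exact permutation test), and 7 had the smallest raw p the design allows. An adjusted p under 0.05 was out of reach unless most of the 16 measures stood at that smallest p. No conclusion is therefore drawn from the lack of a pass. The part of cell composition in the matrix difference was not tested.

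Of 16 genes of the growth hormone and insulin-like growth factor axis, 6 were lower in Damaraland heart, 1 was higher and 9 were not called (37.5% lower and 6.25% higher, median -0.68). Igf2, a growth factor best known from fetal and early postnatal life, was at 9.75, 9.53, 9.63, 9.42 and 10.46 in Damaraland and at 13.23, 13.39 and 13.48 in guinea pig heart (difference -3.61 ± 0.22, limma adjusted p = 5.38e-08). The naked mole-rat and mouse means of Igf2 were 10.62 and 9.60, from hearts of 13 to 17 months and of 2 months. Igf1 was at 7.24 to 7.87 against 8.84 to 9.44 (difference -1.62 ± 0.19), and Irs1, which relays the insulin and IGF receptors, was lower by 1.85 (difference -1.85 ± 0.23). The binding protein genes Igfbp7 (-1.48), Igfbp2 (-1.12) and Igfbp4 (-1.07) were lower, and Igf2r, which clears Igf2, was higher (1.63). Of 15 tested proliferation genes, 5 were lower and 1 was higher: the replication genes Mcm5 (-2.12) and Pcna (-2.10) and the mitotic genes Cenpf (-1.78), Kif11 (-1.42) and Top2a (-1.08) against Mcm2 (1.18). With both group means at least 1 above the minimum, 3 of 12 proliferation genes were lower and 1 was higher. The Damaraland means of Cenpf and Kif11, 6.29 and 5.86, fell short of that. Another 11 proliferation genes of the table lay under the filter on low values. These differences set hearts of 36 to 48 months against hearts of 2.3 months, and the part of age in them was not tested. Thrb, a thyroid hormone receptor, was at 9.98 to 10.51 against 7.64 to 7.96 (difference 2.44 ± 0.17, limma adjusted p = 1.22e-07), and 2 of 11 thyroid and uncoupling genes were higher and none lower.

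Of 20 peroxide-handling genes, 7 were lower and 2 higher (35.0% and 10.0%, median -0.51), beside 15.2% each way over all tested genes. Beside Gpx3, the lower genes were Gpx7 (-1.78), Glrx2 (-1.64), Msra (-1.50), Glrx (-1.48), catalase Cat (-1.17) and Prdx6 (-1.16), and the higher ones Msrb1 (1.57) and mitochondrial superoxide dismutase Sod2 (1.02). The count of higher genes ran from 1, without guinea pig replicate 2 or Damaraland replicate 2 or 3, to 4 without Damaraland replicate 4. Cat was at 9.86 to 10.91 in Damaraland and at 11.48 to 11.60 in guinea pig heart. Of 18 NRF2 genes, 3 were higher and 1 lower, and of 22 hypoxia and oxygen genes 5 were higher (Pdk1, Arnt, Mb, Slc2a1 and Higd1a) and 2 lower (P4ha1 and Cygb).

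Complement genes split, with 5 of 13 higher and 3 lower. C4b was at 10.91 to 12.54 in Damaraland and at 7.35 to 9.12 in guinea pig heart (difference 3.54 ± 0.42), and C6 (2.86) and C3 (2.10) were higher, while C7 (-3.26) and the inhibitor Serping1 (-2.03) were lower. C3 was at 12.31 in Damaraland replicate 5 and at 9.68 to 10.28 in the other Damaraland hearts. Of 18 interferon response genes, 1 was higher and 4 lower (2 without guinea pig replicate 1). Of 37 splicing regulators, 6 were higher, led by Hnrnpk (3.05), and 2 lower. The proteasome genes (4 of 45 higher, 5 lower), autophagy and lysosome genes (4 of 35 higher, 4 lower), p53 targets (3 of 22 higher, 5 lower), circadian clock genes (2 of 19 higher, 1 lower) and immediate early genes (none of 14 higher, 1 lower) were counted in the same way.

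**Figure D4:**
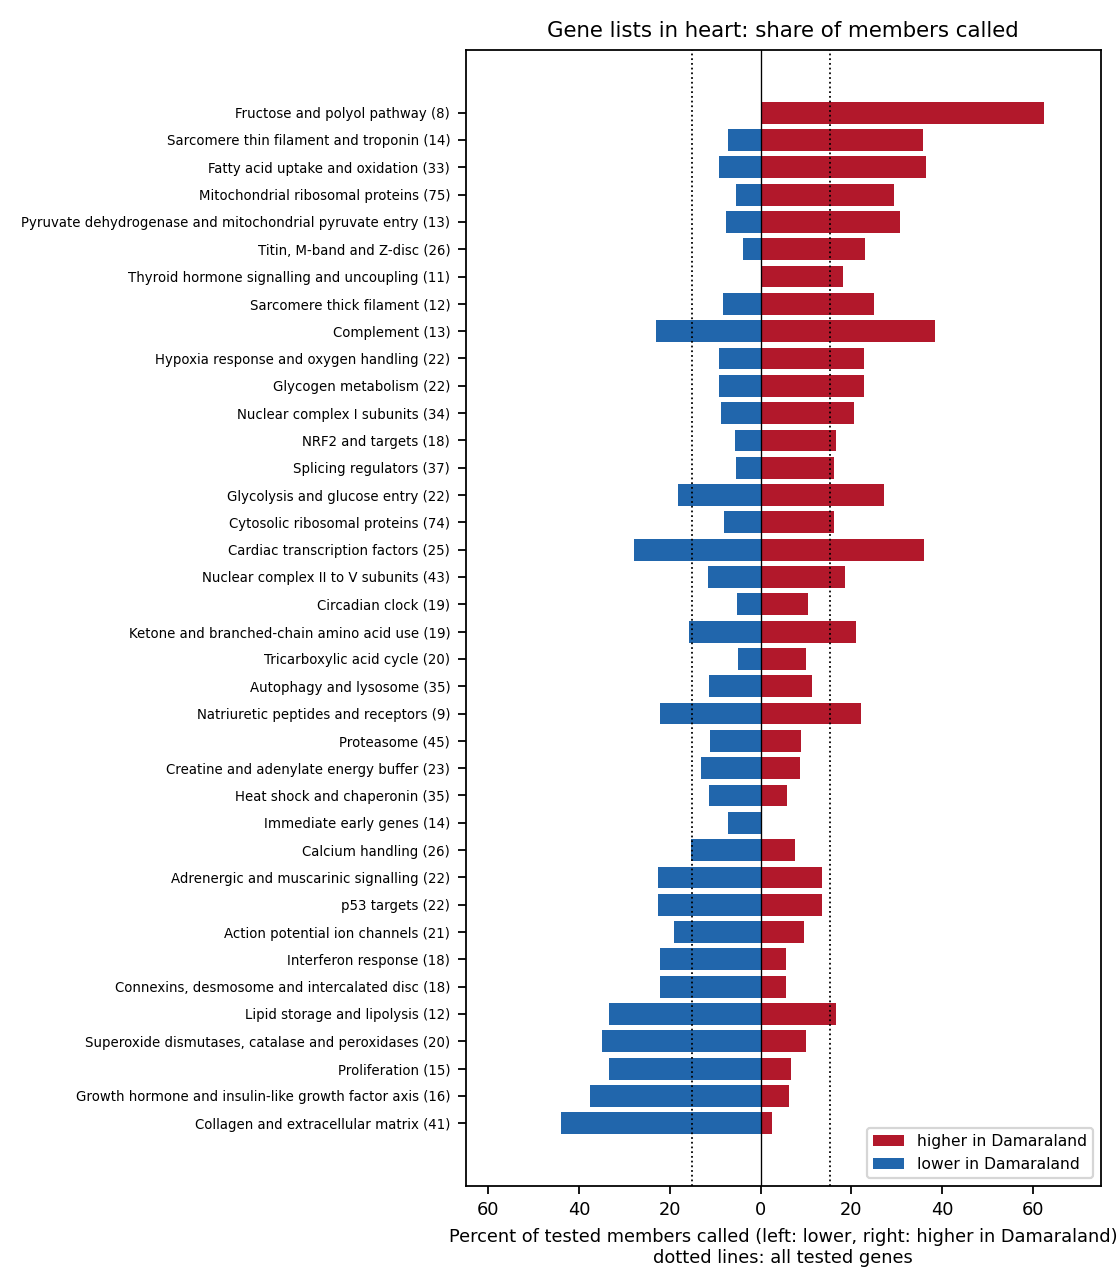
Percent of the tested members of each of the 38 pathway lists that were called, higher in Damaraland to the right (red) and lower to the left (blue), with the number tested in brackets; dotted lines mark the 15.2% in each direction over all tested genes. Collagen and extracellular matrix has the longest bar to the left, and fructose and polyol genes, 8 in number, the longest to the right. With both group means at least 1 above the minimum, 3 of 6 fructose and polyol genes were higher.

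The same pair of species was compared in liver to see which heart differences recurred. Of 10848 genes tested in liver, 3989 were called (36.8%), 2129 higher (19.6%) and 1860 lower (17.1%) in Damaraland. The tables were normalised separately and some animals gave both tissues, so only calls within each table are set side by side. Of 1470 genes higher in heart and tested in liver, 742 were also higher in liver (50.5%), 81 were lower and 647 were not called. Of 1451 genes lower in heart, 714 were lower in liver (49.2%), 106 were higher and 631 were not called. Over the 9961 genes that entered both fits, the liver shares were 18.5% higher and 16.5% lower. The shared genes made up 40.4% of the genes higher and 43.4% of the genes lower in liver. Insig1, Acaca, Ahnak, Pde4dip and Slc2a5 were higher in both tissues, and Svil, Cxcl12, Cd74, Sri and Ckb lower in both. Heart differences of Kcnj5, Gja5, Ldha, Lpl and Prkab2 did not pass in liver. Among the genes with opposite calls, Tnnc1 was higher in heart (1.32) and lower in liver (-4.13), Fbp2 was higher in heart (2.41) and lower in liver (-8.70), Acsl4 lower in heart and higher in liver (1.82), and C7 lower in heart and higher in liver (3.03). Fbp2 averaged 4.41 in Damaraland liver, close to the liver value of 0 reads, 4.29, and 13.11 in guinea pig liver. In guinea pig heart it averaged 6.17, beside a heart value of 0 reads of 5.36.

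**Figure D5:**
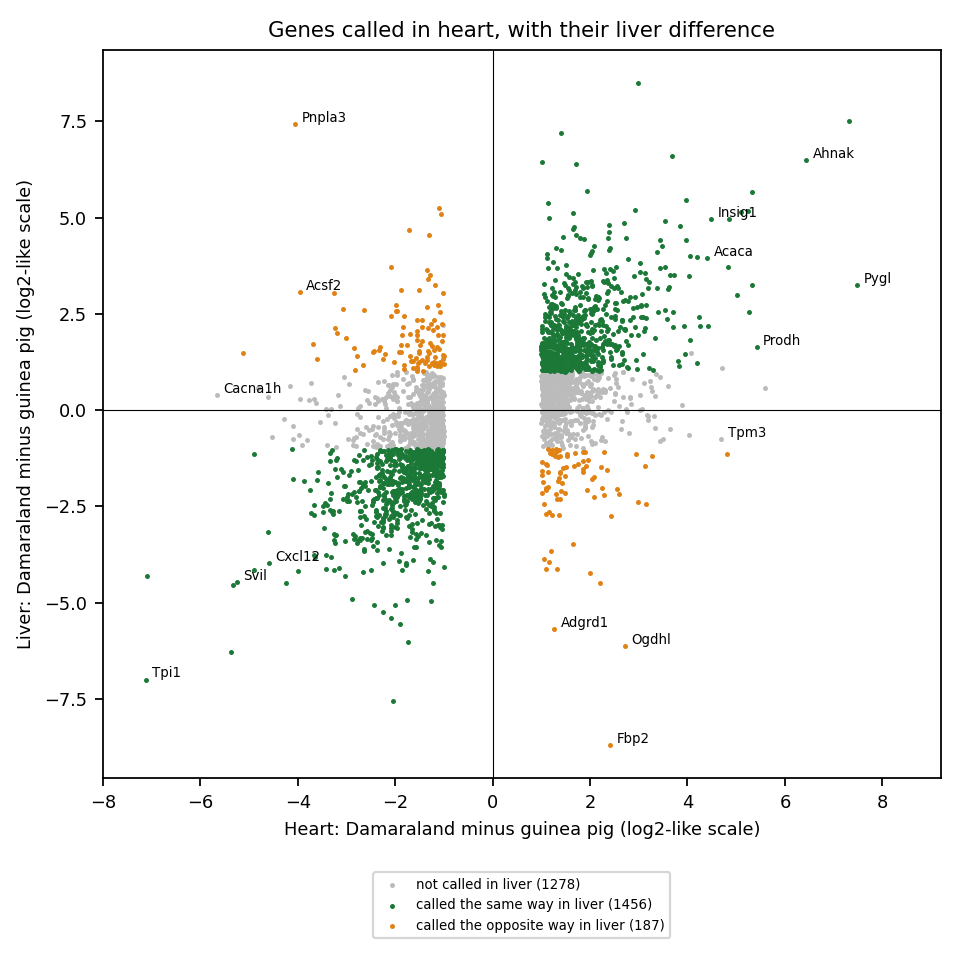
Each point is a gene called in heart and tested in liver, placed by its heart difference (x axis) and liver difference (y axis), Damaraland mole-rat minus guinea pig on the log2-like scale of each table. Green points, 1456 in number, were called the same way in liver, orange points, 187 in number, the opposite way, and grey points were not called in liver.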

How the data were processed

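Heart and liver RNA was sequenced after ribosomal RNA depletion, per the labels' protocols. The submitters' processing notes name cutadapt, Salmon 013.1, DESeq2 and GRCm38, without saying which reference served each species. Per tissue, the authors deposited a table of log2-like values from a variance-stabilising transform. The 26 columns of other series in these tables were not used. Whole reads were recovered from the values by inverting the transform (100% whole within 1e-06) and gave the depth, the library measures and 1 alternative test. Groups came from the library names in the labels. The heart comparison was fitted with limma 3.58.1 (R 4.3.3) on the deposited values of the 8 libraries, with a variance trend and Benjamini-Hochberg adjustment over 10509 genes. The fit was also run on simulated reads with the same dispersion for every gene and no outlying library. No conclusion about the calls is drawn from that run. Library measures had an exact two-sided permutation test. Genes named are the 12 largest differences in each direction, the 8 largest among abundant genes, up to 5 with reads in one species alone, members of 38 pathway and 13 cell marker lists (the 4 largest called, others that an account needed, and a fixed set such as Myh7, Tnni3, Nppa, Atp2a2 and Nfe2l2, called or not), and the 5 largest with opposite calls in liver. The members and lists were chosen with earlier results of these data known. Some list members are counted but not reported by name here.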

Additional observations from a re-analysis of the deposited data

Results flagged for a closer look

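A library stood apart from the rest of the Damaraland hearts, by a test for a single outlying value in a group of 5, in 24 of 234 values checked, and chance alone would flag about 1 in 20. Damaraland replicate 5 accounted for many of them. It was above the other 4 for Col3a1 (14.44 against 11.99 to 12.46), C3 (12.31 against 9.68 to 10.28), Acta2 (13.37 against 12.62 to 12.83), Mybpc1 (9.26 against 7.88 to 8.24), Mybphl (7.59 against 6.38 to 6.62), Bhlhe40 (10.96 against 10.44 to 10.53) and Pcx (10.43 against 10.06 to 10.17), and in the marker sums of fibroblasts (8471 against 2256 to 3155 CPM), leukocytes (372 against 192 to 232) and epicardium (63.0 against 11.4 to 19.3). It was below them for Anapc7 (12.62 against 13.93 to 14.36), Atp5mpl (9.02 against 10.27 to 10.76) and Polk (9.15 against 9.32 to 9.35).

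Damaraland replicate 4 was above the other hearts of its group for Cacna1c (12.60 against 11.90 to 12.07) and Ppm1k (10.01 against 8.86 to 9.14) and below them for Bdh1 (11.25 against 11.88 to 12.02), Hspb1 (10.74 against 11.44 to 11.71), Pln (15.37 against 16.06 to 16.31), Pnpla3 (5.58 against 6.03 to 6.10) and Pon3 (6.60 against 7.03 to 7.16). Replicate 3 was lowest for Cxcl12 (6.53 against 7.13 to 7.30) and Pecam1 (10.30 against 10.71 to 10.78). Replicate 1 was highest for Trp53inp2 (8.60 against 7.06 to 7.41), and replicate 2 for the skeletal muscle marker sum (1426 against 162 to 406 CPM).

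In 15 of the named genes the Damaraland libraries all lay on one side of the guinea pig libraries in heart and on the opposite side in liver. The heart difference was negative and the liver difference positive for Pnpla3 (-4.06 and 7.43), Acsf2 (-3.96 and 3.07), C7 (-3.26 and 3.03), Npr2 (-1.18 and 3.26) and Acsl4 (-1.55 and 1.82). It was positive in heart and negative in liver for Fbp2 (2.41 and -8.70), Ogdhl (2.71 and -6.12), Adgrd1 (1.26 and -5.69), Tnnc1 (1.32 and -4.13), Hk2 (3.26 and -1.20), Tnnt1 (2.09 and -2.25), Cd79a (1.17 and -2.66), Sord (1.53 and -1.20), Osgin1 (1.02 and -1.59) and Sptb (1.13 and -1.02). The difference between the tissues was not tested.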

How the results depend on the processing

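The number of called heart genes, 3198, was 6446 without the size threshold, 2016 with a mean above the table median and 1510 when tested against a difference of 1, and the liver number, 3989, was 7052, 2327 and 2183 in the same order. Leaving out each library gave 3180 to 3249 in heart and 3940 to 4099 in liver. Voom on recovered reads called 4429 heart genes, 3193 of them among the 3198 and with the same sign. Replicate numbers do not pair animals of different species (correlations of same-numbered deviations in heart 0.32, -0.09 and 0.17), and with the number as a replicate block 3278 heart and 4052 liver genes were called. Of 206 named genes, 148 kept sign and call in all settings run, and 49 lost the call when tested against a difference of 1. Of the 102 counts of list members called in 1 direction, 23 moved by over 1.5 times when a library was left out, among them 2 of the 25 counts of at least 5. The sign turned for uncalled genes: Nfe2l2 (-0.03) was 0.0297 with array weights, 0.0031 with centred libraries, 0.099 with the replicate block and -0.3243 to 0.1701 without 1 library, Tnni3 was -0.1423 after quantile normalisation and Atp2a2 0.0161 with the replicate block. As log2 ratios, the library measures that turned were the mural cell markers (-0.0759 to 0.0285 without 1 library, 0.5397 by the median marker, 0.1521 over all reads), leukocyte (0.2887), erythroid (-0.1965) and epicardial markers (0.2285) by the median marker, platelet markers (-0.6859 to 0.3231 without 1 library) and the share of genes at 0 reads (-0.0824 to 0.0307 without 1 library). The causes were not tested. Compression of low values limits differences of rare genes.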
